A study of Mus musculus with 8 samples.

Results

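The enzymes described here are the phase II conjugation enzymes of the mouse small intestine, taken as every gene of the deposited table whose symbol begins with Ugt, Gst, Mgst or Sult followed by a number or, for Gst, a letter. They comprise 53 of the 17634 genes of the table. The UDP-glucuronosyltransferases (UGT) number 17, the cytosolic, mitochondrial and related glutathione S-transferases (GST) 23, the microsomal glutathione S-transferases (MGST) 3 and the sulfotransferases (SULT) 10. Members were taken by name, whatever their values, but the families were picked with earlier results of these data known.

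RNA came from crypts of the small intestine, the invaginations between the villi in which stem cells and their progeny divide, taken 3 days post irradiation from C57BL/6N mice. A group of 4 libraries from miR-29ab1-/- mice (KO), in which the locus of 2 microRNA genes, Mir29a and Mir29b-1, is deleted, was set against 4 libraries from wild-type mice (WT), and both groups were irradiated. The labels state neither the radiation dose nor the ages of the mice, and they do not say that each library is a separate mouse; each is a bulk preparation of crypts. The table lists none of the miR-29 genes, so the genotype could not be checked by the deleted locus.

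Phase II enzymes attach a polar group to a lipophilic compound so that it can be exported in bile, urine or the gut lumen. UGTs, anchored in the endoplasmic reticulum, transfer glucuronic acid from UDP-glucuronic acid; GSTs transfer glutathione to electrophiles; SULTs transfer sulfate from 3′-phosphoadenosine-5′-phosphosulfate (PAPS). In the small intestine these enzymes act on dietary compounds, drugs, bile acids, steroids and products of lipid peroxidation, and many of them are known from the absorptive enterocytes that arise as progenitors leave the crypt.

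The mature microRNAs are shown because they define the difference between the groups, with the seed (bases 2 to 8) in capitals; they are RefSeq sequences on GRCm38.p6, and all of them share that seed. Mir29a (chr6:31062673-31062694, minus strand) and Mir29b-1 (chr6:31063025-31063047, minus strand) form the locus that the KO mice lack, while miR-29b-3p is also encoded by Mir29b-2 and miR-29c-3p by Mir29c, both on chromosome 1.
miR-29a-3p: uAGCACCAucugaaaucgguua
miR-29b-3p: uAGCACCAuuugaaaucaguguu
miR-29c-3p: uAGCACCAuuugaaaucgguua

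A match to that seed, TGGTGCT, was rare among the conjugating enzymes. It stood in the longest annotated 3′ UTR of 1 of the 53 members, against 1968 of the 12670 tested genes with such a UTR (15.5%). The median UTR length was 526 bases over the 37 members tested and 1165 bases over all tested genes. The single match belonged to Gstz1, the maleylacetoacetate isomerase of tyrosine breakdown, at positions 184 to 190 of a UTR of 893 bases, and is shown with its flanks and the match in capitals. Gstz1 averaged 30.9 ± 10.6 CPM (counts scaled to a library total of 1e+06) in KO crypts and 24.4 ± 3.08 CPM in WT crypts (SD, n = 4 each), a difference that did not pass the test (adjusted p = 0.235, edgeR).
Gstz1 site: aaggcagtcaTGGTGCTggagaggtag

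The libraries held 9481201 to 14612798 counts in KO and 10719668 to 16231099 in WT. Levels are given as CPM after TMM scaling, fold changes are KO over WT from edgeR's quasi-likelihood test, and adjusted p-values are Benjamini-Hochberg values over all 12908 genes tested, called at 0.05. Markers of other cell types moved with genotype. All 25 enterocyte markers tested were higher in KO, and their summed level was 38340 to 122360 CPM in KO libraries and 3466 to 16130 CPM in WT libraries. All 20 markers of G2 and M phase were lower in KO, at 793 to 1371 CPM in KO and 2402 to 2944 CPM in WT. Of the goblet markers 8 of 9 and of the tuft markers 8 of 8 were higher, and of the Lgr5+ stem cell markers 7 of 12 were lower. Of the enteroendocrine markers 4 of 12 and of the Paneth markers 2 of 10 were higher. Over all genes tested 24.2% were higher and 23.1% lower in KO. The Paneth count is under that share, and the enteroendocrine count is not far above it. The other tested markers were 6 of fibroblasts and smooth muscle, 5 of endothelium and 8 of leukocytes. There were 3 of erythroid cells, 1 of pancreatic acini and 3 of hepatocytes. No marker of these lists passed edgeR's adjusted threshold. At an unadjusted p under 0.05, and with DESeq2, there was 1, of the hepatocyte list. The sums of the fibroblast and smooth muscle markers varied widely within both groups, at 34.5 to 257 CPM in KO and 37.4 to 222 CPM in WT, as did those of the leukocyte markers in KO, at 90.3 to 631 CPM, against 41.4 to 164 CPM in WT. None of the enterocyte markers was at 0 in any group, and in bulk RNA more cells of a type and more RNA per cell cannot be told apart. The part of these shifts in the results on the conjugating enzymes was not tested. Replicate 4 of each group differed from the others in Y-linked transcripts, with 1 count over 4 genes in KO replicate 4 and 3 counts in WT replicate 4, against at least 1285 in every other library.

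Most of the members that were called were higher in crypts of KO mice, in each enzyme class. Of the 53 members, 37 passed the filter on low counts, and 19 of these were higher and 2 lower in KO. Across all genes tested 24.2% were higher and 23.1% lower in KO, and 47.3% were called in either direction, so calls as such were common in this comparison. Among the tested members 51.4% were higher. The KO and WT libraries did not overlap in CPM for 21 of the 37, as they did not for 45.4% of all tested genes. The median log2 fold change was 0.77 over the tested members and 0.03 over all tested genes. Of the 37 tested members 13 were called higher and rose at least 4-fold, beside 4.79% of all tested genes. With total counts in place of TMM factors the counts were 18 higher and 2 lower, beside 16.2% of all genes higher.

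By class, of the tested members 3 of 7 UGTs, 8 of 21 GSTs, all 3 MGSTs and 5 of 6 SULTs were higher in KO, and 1 GST and 1 SULT were lower. The shares higher were 42.9% for UGTs, 38.1% for GSTs and 83.3% for SULTs, beside 24.2% of all tested genes. Called in either direction were 42.9% of UGTs and 42.9% of GSTs, under the 47.3% of all tested genes. The 16 members that were not tested had mean counts of at most 8.88 per library. The tested members passed the filter partly through the level in the group where they were high, so these counts describe the tested members and not the 4 families as a whole.

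**Figure D1:**
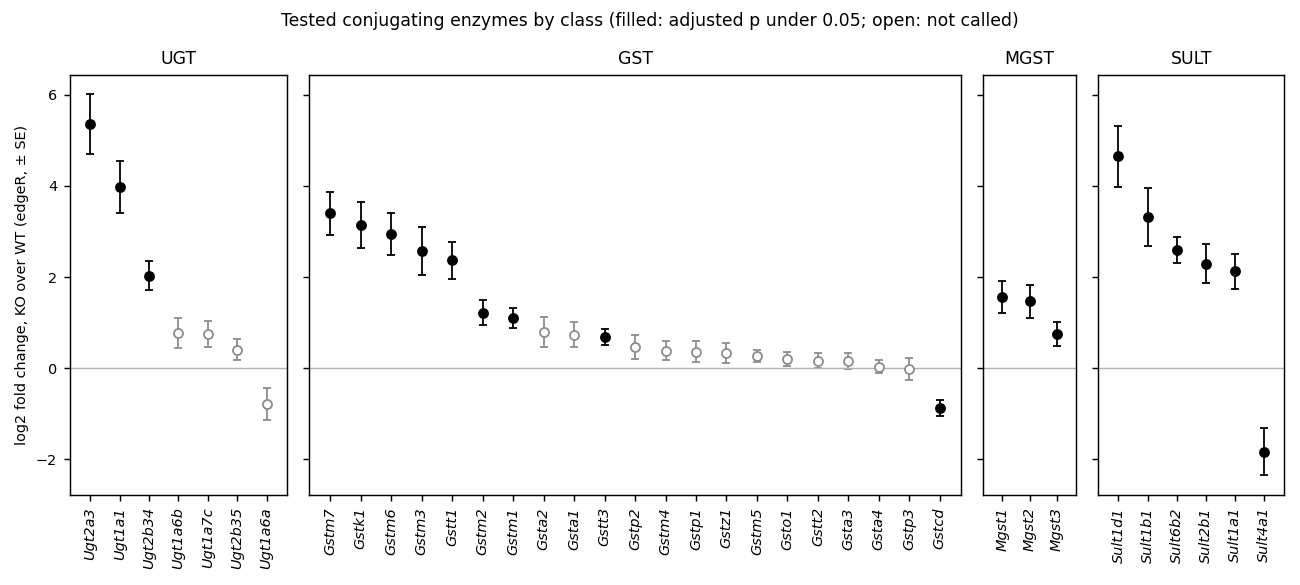
Log2 fold change (KO over WT, edgeR) of the 37 tested members, by enzyme class and ordered by size; bars are ± 1 SE, filled points passed the adjusted threshold of 0.05 and open points did not. Ugt2a3 at 5.36 and Sult1d1 at 4.65 stand at the top, and Sult4a1 at −1.84 at the bottom.

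Glucuronidation was the class with the steepest single difference. Ugt2a3, a UGT that in humans conjugates bile acids, had 39.1, 58.5, 13.4 and 15.8 CPM in KO libraries 1 to 4, against 1.34, 0.717, 0.896 and 0.165 CPM in WT libraries 1 to 4. Every KO library lay above every WT library, and the transcript was close to the limit of detection in WT. The fold was 41.1, a log2 fold change of 5.36 ± 0.67 (SE, adjusted p = 0.00108). Ugt1a1, the enzyme that conjugates bilirubin, had 81.1, 89.6, 19.9 and 46.4 CPM in KO, against 5.71, 4.93, 3.35 and 1.27 CPM in WT. Its groups did not overlap either, with KO libraries 1 and 2 the highest. The log2 fold change was 3.98 ± 0.57 (SE, adjusted p = 0.00122), or 15.8-fold. Ugt2b34, a member of the UGT2B group that acts on steroids and foreign compounds, had 477, 531, 177 and 303 CPM in KO, against 85.3, 102, 101 and 75.3 CPM in WT. It was 4.09-fold higher (log2 fold change 2.03 ± 0.32, SE, adjusted p = 0.00153) and had the highest mean FPKM of all UGTs in both groups, within the spread of Ugt1a7c in WT (34.2 ± 5.69 and 30.4 ± 12.1 FPKM, SD, n = 4 each).

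The windows from 250 bases before to 50 bases after the annotated start are shown for Ugt2a3 and Ugt1a1, the UGTs with the largest folds, from RefSeq on GRCm38.p6 in the direction of transcription. Capitals mark TTTATTG, the short form of the site of the intestinal factor CDX2, in Ugt2a3 (chr5:87337146-87337445, minus strand), and the reverse complement of the first 10 letters of the site of the hepatocyte nuclear factor HNF1, in Ugt1a1 (chr1:88211709-88212008, plus strand).
Ugt2a3 promoter: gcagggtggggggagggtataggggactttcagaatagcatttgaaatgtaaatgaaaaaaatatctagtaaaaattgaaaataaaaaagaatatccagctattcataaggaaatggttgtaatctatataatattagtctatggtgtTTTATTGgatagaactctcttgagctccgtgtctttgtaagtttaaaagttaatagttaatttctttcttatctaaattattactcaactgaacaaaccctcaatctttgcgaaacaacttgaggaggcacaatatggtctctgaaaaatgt
Ugt1a1 promoter: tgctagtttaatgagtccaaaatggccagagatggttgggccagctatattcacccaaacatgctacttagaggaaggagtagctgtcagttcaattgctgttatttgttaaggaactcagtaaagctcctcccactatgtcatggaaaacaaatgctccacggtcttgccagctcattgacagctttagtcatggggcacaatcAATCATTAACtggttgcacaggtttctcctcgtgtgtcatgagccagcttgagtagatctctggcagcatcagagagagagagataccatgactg

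The other tested UGTs did not pass the test. Ugt1a7c, which like Ugt1a6 conjugates planar phenols, had 195, 184, 101 and 105 CPM in KO and 74.3, 75.6, 129.6 and 66.4 CPM in WT. WT library 3 lay above KO libraries 3 and 4, and the log2 fold change of 0.76 ± 0.29 had an adjusted p of 0.0554 (edgeR). Without WT replicate 3 it was called higher (adjusted p = 0.0172), as it was without KO replicate 3 (adjusted p = 0.0275), with DESeq2 (adjusted p = 0.0357) and with a stricter count filter (adjusted p = 0.0471). Ugt1a6b averaged 12.2 ± 2.87 CPM in KO and 7.15 ± 3.26 CPM in WT (SD, n = 4 each), and Ugt1a6a averaged 5.35 ± 1.57 CPM in KO and 9.19 ± 4.11 CPM in WT. Ugt1a6a was called lower when the replicate number was kept as a block (log2 fold change −0.72, adjusted p = 0.048). Ugt2b35 averaged 24.7 ± 8.60 CPM in KO and 18.6 ± 1.38 CPM in WT, and was called higher without KO replicate 3 (adjusted p = 0.0227). The genes of the Ugt1a locus are alternative first exons joined to shared later exons. Of the 50-base windows of their annotated transcripts, 52.1% to 79.8% over the tested Ugt1a members also occur in another gene, and their deposited counts were not whole, so values of single Ugt1a genes are uncertain. For Ugt2a3 that share was 4.55% and for Ugt2b34 1.44%.

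Of the 10 UGTs not tested, 4 were called higher when no filter was applied. The share of all genes called higher in that setting was not counted, so the 4 have no background beside them. Ugt2b36 had 42 counts over the KO libraries and 5 over the WT libraries (adjusted p = 0.00561, edgeR without a filter). Ugt2a2, which shares most of its sequence with Ugt2a1, had 16 counts in KO and 0 in WT (adjusted p = 0.0375, edgeR without a filter), and 0 counts allow up to 3 in counting error alone. Ugt1a9, with 28.4 counts in KO and 2.09 in WT, and Ugt2b5, with 22.8 in KO and 4 in WT, were called higher as well. Their adjusted p-values were 0.0108 and 0.04 (edgeR without a filter). Of the windows of Ugt1a9, 62.0% occur in another gene.

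The GST class was divided by subfamily. The mu, theta and kappa genes held all 8 that rose, while none of the 4 alpha and 3 pi genes passed edgeR's adjusted threshold. Over all tested genes 24.2% were higher, and sets of 4 and 3 genes are too small to be set apart from that share. The alpha genes Gsta1 and Gsta2 were near the threshold (adjusted p = 0.0547 and 0.0781, edgeR). At an unadjusted p under 0.05 there were 2 alpha genes and 0 pi genes, and DESeq2 called 1 alpha gene and 0 pi genes. In the mu group, whose enzymes act on a wide range of electrophiles, Gstm7 had 17.6, 23.5, 5.98 and 7.11 CPM in KO, against 1.20, 1.35, 1.31 and 1.27 CPM in WT. The WT libraries were nearly equal and every KO library was above them, KO libraries 1 and 2 by the most. The fold was 10.5 (log2 fold change 3.40 ± 0.47, SE, adjusted p = 0.00116). Gstm6 had 30.6, 31.7, 11.8 and 10.7 CPM in KO, against 3.59, 1.88, 3.71 and 1.71 CPM in WT, a fold of 7.75 (adjusted p = 0.0015). Gstm3 rose 5.94-fold (log2 fold change 2.57 ± 0.53, SE, adjusted p = 0.00434), although 28.8% of its windows are shared with other sequences. In these members too the groups were apart.

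Gstm1 and Gstm2 rose by less. Gstm1 had 55.1, 64.4, 39.9 and 45.1 CPM in KO, against 21.4, 20.7, 34.1 and 19.1 CPM in WT. WT library 3 stood above the other WT libraries but below all KO libraries, and the fold was 2.14 (log2 fold change 1.10 ± 0.22, SE, adjusted p = 0.00367). Gstm2 was 2.33-fold higher (adjusted p = 0.0057). Without KO replicates 1 and 2, the libraries with the highest enterocyte markers, these calls were lost (adjusted p = 0.0584 for Gstm1 and 0.0518 for Gstm2). Gstm4 and Gstm5 did not pass the test, at log2 fold changes of 0.39 ± 0.20 and 0.26 ± 0.13 (SE, edgeR). The 7 Gstm genes lie in 149.3 kb of chromosome 3, and the 5 that rose are the inner ones in map order, with Gstm5 and Gstm4 at the ends. Over all tested genes 24.2% were higher.

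Gstk1, the kappa enzyme of mitochondria and peroxisomes, had 85.0, 86.5, 19.7 and 24.0 CPM in KO, against 5.99, 5.74, 6.75 and 5.78 CPM in WT. The WT libraries spanned about 1 CPM, the KO libraries fell into a high and a lower pair, and all KO values were above all WT values. The fold was 8.86 (log2 fold change 3.15 ± 0.50, SE, adjusted p = 0.00163). Gstt1, a theta enzyme known for acting on small halogenated hydrocarbons, had 34.8, 37.7, 15.2 and 12.3 CPM in KO, against 5.0, 4.93, 6.39 and 3.03 CPM in WT. It was 5.17-fold higher (adjusted p = 0.00204) with no overlap. Gstt3 was 1.60-fold higher (adjusted p = 0.0114), a call that was lost without KO replicate 1 (adjusted p = 0.0563) and without KO replicates 1 and 2 (adjusted p = 0.143). Gstt2 did not pass, at 18.3 ± 3.23 CPM in KO and 16.4 ± 2.29 CPM in WT (SD, n = 4 each).

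The most abundant GSTs were among those that did not pass. Gstp1, the pi enzyme, had 464, 510.2, 314 and 266 CPM in KO, against 325, 317, 334 and 234 CPM in WT. KO libraries 3 and 4 fell within the WT range (log2 fold change 0.36 ± 0.23, SE, adjusted p = 0.215). Gsto1, an omega enzyme with thioltransferase and dehydroascorbate reductase activity, had 535, 599, 469 and 396 CPM in KO, against 445, 468, 415 and 413 CPM in WT. Its KO libraries spanned the whole WT range (log2 fold change 0.20 ± 0.15, SE, adjusted p = 0.297). Gsta4, which conjugates the lipid peroxidation product 4-hydroxynonenal, had 90.4, 78.6, 106 and 68.8 CPM in KO, against 92.0, 84.3, 86.5 and 73.0 CPM in WT. This was the smallest positive difference of the class, 0.03 ± 0.15 on the log2 scale (SE, adjusted p = 0.867), and its sign turned under total-count scaling, as did those of Gsto1, Gsta3, Gstt2 and Gstm5.

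Gsta1 lay at the edge of the threshold. It averaged 43.2 ± 8.81 CPM in KO and 26.0 ± 9.57 CPM in WT (SD, n = 4 each; adjusted p = 0.0547, edgeR), and was called higher with the replicate number as a block (log2 fold change 0.79, adjusted p = 0.00323), with DESeq2 (adjusted p = 0.037) and in 3 further settings. In its transcripts 90.5% of windows occur in another gene, mostly the predicted gene Gm3776, so this value cannot be assigned to Gsta1 alone. Gstp1 and Gstp2 share 33.7% and 54.3% of their windows with other genes. Gstcd, which carries a GST C-terminal domain and whose conjugating activity is not established, was the only GST gene that fell. It had 10.3, 14.1, 13.6 and 17.6 CPM in KO, against 24.6, 22.4, 24.0 and 30.8 CPM in WT, without overlap. This is 1.84-fold lower in KO (log2 fold change −0.88 ± 0.18, SE, adjusted p = 0.00403).

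**Figure D2:**
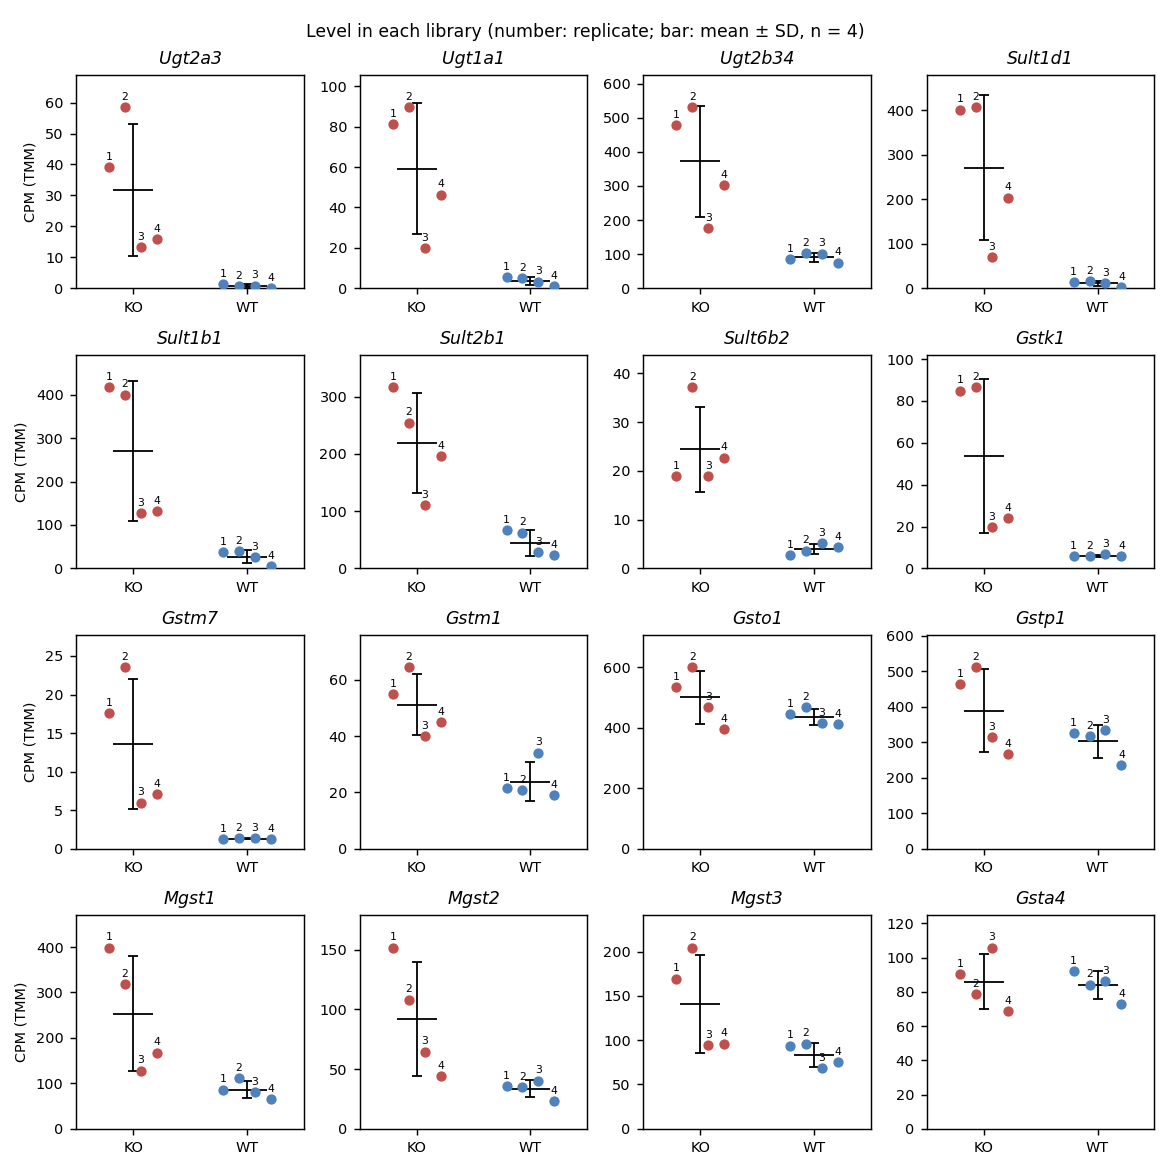
CPM (TMM) of 16 members in each library, KO left of WT; numbers are replicates, and the long bar with whiskers is the mean ± SD of 4 libraries. KO libraries 1 and 2 are highest for most members that rose, and Gsto1, Gstp1 and Gsta4 overlap between the groups.

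The 3 microsomal enzymes, membrane proteins of the MAPEG family, were all called higher, though not equally firmly. Mgst1, which reduces lipid hydroperoxides besides conjugating glutathione, had 399, 318, 128 and 168 CPM in KO, against 86.0, 112, 81.3 and 65.4 CPM in WT. All KO libraries were above all WT libraries (log2 fold change 1.56 ± 0.35, SE, adjusted p = 0.0064), a fold of 2.94. Mgst2, which can also form leukotriene C4, had 152, 108, 64.6 and 44.3 CPM in KO, against 35.6, 34.6, 40.3 and 23.5 CPM in WT. The groups stayed apart with a fold of 2.76 (adjusted p = 0.00896), but without KO replicates 1 and 2 the call was lost (adjusted p = 0.0752). Mgst3 had 169.6, 205, 94.1 and 96.1 CPM in KO, against 93.8, 96.2, 68.7 and 75.2 CPM in WT. Here KO libraries 3 and 4 were level with WT libraries 1 and 2, and the 1.69-fold difference had an adjusted p of 0.0407 that missed the threshold in 12 of 18 alternatives. With KO replicate 1, KO replicate 2 or any single WT replicate left out, the adjusted p was 0.0583 to 0.136.

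The sulfotransferases had the largest difference as a class. Sult1d1, which in mice sulfates catecholamines such as dopamine, had 402, 407, 71.0 and 204 CPM in KO, against 13.7, 16, 10.8 and 2.97 CPM in WT. The lowest KO library, replicate 3, was still above the highest WT library. The fold was 25.1 (log2 fold change 4.65 ± 0.68, SE, adjusted p = 0.00126). Sult1b1, which acts on phenols and thyroid hormones, had 417, 400.1, 127 and 133 CPM in KO, against 37.1, 40.3, 25.5 and 5.95 CPM in WT. KO libraries again formed a high and a lower pair, and WT library 4 was far below its group. It was 9.93-fold higher (log2 fold change 3.31 ± 0.64, SE, adjusted p = 0.00319).

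Sult2b1, the enzyme that sulfates cholesterol and pregnenolone, had 316, 254, 110.3 and 196 CPM in KO, against 66.3, 62.6, 28.3 and 22.9 CPM in WT. It was 4.88-fold higher without overlap (log2 fold change 2.29 ± 0.43, SE, adjusted p = 0.00284). Sult6b2, a member whose substrates are not well known, had 19, 37.1, 18.8 and 22.7 CPM in KO, against 2.75, 3.68, 5.20 and 4.35 CPM in WT. In Sult6b2, as in Sult1a1, KO library 1 was not among the 2 highest KO libraries. Sult6b2 had the smallest p of the class at 6.08-fold (log2 fold change 2.60 ± 0.29, SE, adjusted p = 0.00108). Sult1a1, which sulfates simple phenols, was 4.36-fold higher at a low level of 3.37 ± 1.29 CPM in KO and 0.776 ± 0.224 CPM in WT (SD, n = 4 each; adjusted p = 0.00263, edgeR).

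Sult4a1 went the other way. This sulfotransferase, known from brain and without an established substrate, averaged 0.566 ± 0.394 CPM in KO and 2.03 ± 0.319 CPM in WT (SD, n = 4 each), 3.58-fold lower in KO (adjusted p = 0.0166, edgeR). It was the least abundant of the called sulfotransferases in KO. Sult1c2, not tested for its low counts, had 51 counts over the KO libraries and 20 over the WT libraries, and was called higher without the filter (adjusted p = 0.029).

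The windows around the start are shown for Sult1d1, Gstm7 and Mgst1, which rose in 3 different classes and hold a match to a motif of a factor known to act on such genes. Capitals mark, in Sult1d1 (chr5:87568957-87569256, minus strand), the first 10 letters of the HNF1 site and, closer to the start, the reverse complement of TNGCGTG, the core of the xenobiotic response element. Gstm7 and Mgst1 each have 2 annotated start windows, of which the other held none of the motifs searched and is not shown. In Gstm7 (chr3:107931565-107931864, minus strand) the capitals mark TGACNNNGC, the core of the antioxidant response element, and in Mgst1 (chr6:138140277-138140576, plus strand) its reverse complement.
Sult1d1 promoter: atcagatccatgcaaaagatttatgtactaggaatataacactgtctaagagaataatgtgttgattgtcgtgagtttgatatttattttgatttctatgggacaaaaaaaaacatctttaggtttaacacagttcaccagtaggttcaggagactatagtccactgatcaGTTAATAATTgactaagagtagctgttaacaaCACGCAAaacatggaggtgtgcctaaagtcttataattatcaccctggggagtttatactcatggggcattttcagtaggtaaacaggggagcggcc
Gstm7 promoter: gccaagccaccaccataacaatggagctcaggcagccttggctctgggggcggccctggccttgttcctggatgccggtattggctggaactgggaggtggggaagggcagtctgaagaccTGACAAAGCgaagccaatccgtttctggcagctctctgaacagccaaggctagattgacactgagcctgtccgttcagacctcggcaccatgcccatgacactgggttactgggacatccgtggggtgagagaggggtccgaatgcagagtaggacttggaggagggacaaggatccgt
Mgst1 promoter: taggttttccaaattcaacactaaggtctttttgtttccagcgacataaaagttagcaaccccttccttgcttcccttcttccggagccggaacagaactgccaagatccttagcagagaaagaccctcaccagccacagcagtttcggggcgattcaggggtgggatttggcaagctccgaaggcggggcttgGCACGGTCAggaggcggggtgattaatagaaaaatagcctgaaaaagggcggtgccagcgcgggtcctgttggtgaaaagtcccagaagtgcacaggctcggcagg

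Matches of this kind were in few of the members' windows, at shares above those of all windows for some motifs and below for others. Over 61 windows of 49 members, searched on both strands, TGACNNNGC occurred in 6.56%. It occurred in 12.4% of all 32851 RefSeq windows and 14.4% of the 13140 windows of tested genes. TNGCGTG occurred in 6.56% of the members' windows, 5.07% of all windows and 7.57% of those of tested genes. For TTTATTG the shares were 1.64%, 4.60% and 2.63% in that order. For the site CAAAGTCCA of HNF4, found in Sult1b1, they were 1.64%, 0.475% and 0.510%. The full HNF1 site was in none of the members' windows, in 0.0609% of all and in 0.0304% of those of tested genes. Its first 10 letters, which lie within it, were in 4.92% of the members' windows, namely those of Sult1d1, Ugt1a1 and the untested Ugt1a9. They were in 0.399% of all windows and 0.259% of those of tested genes. No 2 marked matches overlap in the windows shown. A match is a description of the letters and says nothing of binding.

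Several of the genes that rose are neighbours, and many members lie in clusters whether they were called or not. Called higher were 24.2% of all tested genes and 51.4% of the tested members. Loci with 5 or fewer tested members are too small to be set apart from these shares. A stretch of 701.8 kb on chromosome 5 holds 12 members, UGT2 and SULT1 genes together (chr5:86889770-87591611, RefSeq GRCm38.p6). Of its 5 tested members Ugt2b34, Ugt2a3, Sult1b1 and Sult1d1 were higher in KO and Ugt2b35 was not called. Of the 4 Gstt genes in 63.3 kb of chromosome 10, Gstt3 and Gstt1 rose, Gstt2 did not pass and Gstt4 was not tested. In the Ugt1a locus, 149.2 kb of chromosome 1, 1 of 4 tested members rose. In the 24.2 kb of Gstp genes on chromosome 19 none of 3 was called.

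Summed over members, KO crypts had 655 ± 271 CPM of UGT transcripts and WT crypts 217 ± 45.9 CPM (SD, n = 4 each), a ratio of 3.01. For GSTs the sums were 1447 ± 339 CPM in KO and 1090.0 ± 96.9 CPM in WT, a ratio of 1.33. For MGSTs they were 486 ± 221 CPM in KO and 203 ± 33.8 CPM in WT, a ratio of 2.40, and for SULTs 789 ± 407 CPM in KO and 90.7 ± 42.0 CPM in WT, a ratio of 8.70. In CPM, KO and WT libraries overlapped in the GST sum alone of these 4 sums, where KO library 4, at 1082 CPM, was below 3 of the WT libraries. Without KO replicates 1 and 2 the log2 ratios were 0.99 for UGTs, 0.094 for GSTs, 0.55 for MGSTs and 2.30 for SULTs, against 1.59, 0.41, 1.26 and 3.12 with all libraries. These sums are descriptions without a test.

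The makeup of each class was taken per transcript length, from the deposited FPKM, and is given without a test. Ugt2b34 made up 56.5% of the UGT sum in KO and 42.9% in WT, while Ugt1a7c made up 20.7% in KO and 38.0% in WT. Ugt2a3 held 6.95% of the UGT sum in KO and 0.533% in WT, and Ugt1a1 8.38% in KO and 1.67% in WT. In the GST sum the order at the top was the same in both groups, with Gstp1 at 36.6% in KO and 38.4% in WT, followed by Gsto1 at 28.1% in KO and 32.4% in WT and by Gsta4. These neighbours are close within their spread, at 556 ± 114 FPKM for Gstp1 and 427 ± 50.8 FPKM for Gsto1 in KO and 536 ± 91.6 FPKM and 452 ± 18 FPKM in WT (SD, n = 4 each). Gstk1 moved to rank 5 of 23 in KO, against rank 15 in WT. Among SULTs, Sult1b1 led in KO with 38.8%, against 30.1% in WT, and Sult2b1 led in WT with 57.2%, against 37.3% in KO. Sult1d1 held 20.1% of the SULT sum in KO and 6.22% in WT. In FPKM, which are scaled by total reads, the ratio of KO to WT was 2.47 for UGTs, 1.09 for GSTs, 1.84 for MGSTs and 6.10 for SULTs.

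**Figure D3:**
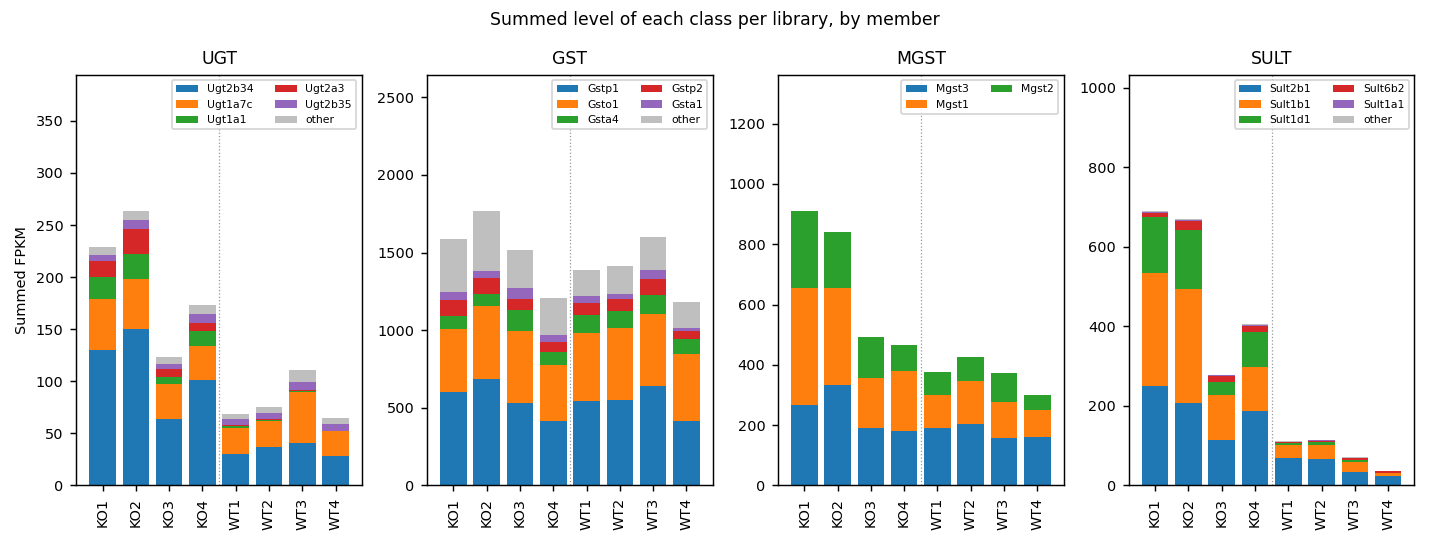
Summed FPKM of each class in each library, stacked by the most abundant members, with KO libraries left of the dotted line and WT libraries right of it; the vertical scales differ between panels. Sult1b1, Sult2b1 and Sult1d1 fill nearly all of the SULT bars, and the GST bars, led by Gstp1 and Gsto1, are of similar height in both groups.

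The members that rose had a common order of libraries. Of the 19, KO libraries 1 and 2 were the highest KO libraries in 17, and KO libraries 3 and 4 were both above every WT library in 18. The 19 were picked by being called higher, so the count of 18 follows in part from that choice. The same counts were not made over all genes, so this order is not shown to be particular to the members. WT library 4 was the lowest of all 8 in 12 of them. The summed enterocyte markers had the same order at both ends, with 122360 CPM in KO library 1 and 102178 CPM in KO library 2, 38340 and 59238 CPM in KO libraries 3 and 4, and 3466 CPM in WT library 4. When KO replicates 1 and 2 were left out, a choice made after their enterocyte markers were seen, 14 members were higher and 2 lower, beside 15.9% of all genes higher. In that setting 3 UGTs, 5 GSTs, 1 MGST and 5 SULTs were higher. How far the enterocyte transcripts and the members depend on each other was not tested.

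**Figure D4:**
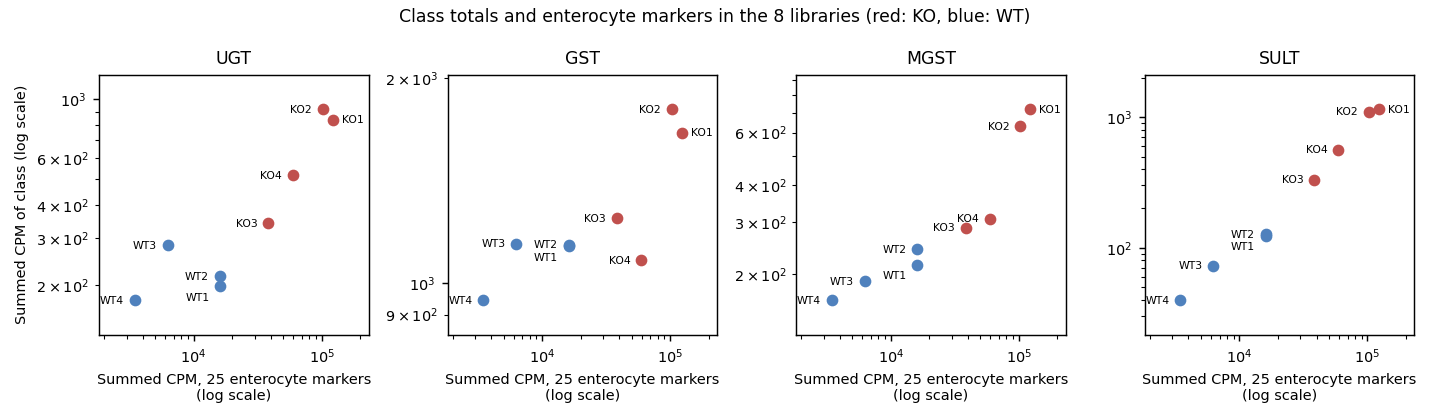
Summed CPM of each class against the summed CPM of 25 enterocyte markers in the 8 libraries, both on log scales; KO in red and WT in blue, labelled by replicate. UGT, MGST and SULT sums are highest in KO libraries 1 and 2, which have the highest enterocyte sums, and the GST sum of KO library 4 lies among the WT libraries.

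The supply of cosubstrates and the regulation and export of conjugates were compared through lists of genes chosen by function. Over all tested genes 24.2% were higher and 23.1% lower. Of the 5 tested genes listed for UDP-glucuronic acid, 4 were higher in KO and none lower. Besides Ugp2, Ugdh and Slc35d1, the list holds the nucleotide transporters Slc35b1, called higher, and Slc35a3, not called. The part of Slc35b1 and Slc35a3 in the supply of UDP-glucuronic acid is not established. Slc35b1, a nucleotide transporter of the endoplasmic reticulum, had 145 ± 35.0 CPM in KO and 80.7 ± 11.4 CPM in WT (SD, n = 4 each; log2 fold change 0.84, adjusted p = 0.0056, edgeR). Slc35d1, which carries UDP-glucuronic acid into that compartment, had 47.8 ± 12.7 CPM in KO and 29.1 ± 1.31 CPM in WT (adjusted p = 0.00996, edgeR). Ugp2 and Ugdh, which make UDP-glucose and UDP-glucuronic acid, had log2 fold changes of 0.61 ± 0.18 and 0.65 ± 0.22 (SE, adjusted p = 0.0218 and 0.034, edgeR). The calls of Ugdh, Ugp2 and Slc35d1 were lost in 10, 8 and 3 of 18 alternatives, while that of Slc35b1 held in all 18.

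For sulfation, 6 of 8 tested genes of PAPS supply and salvage were higher and 1 lower. Papss2, which makes PAPS, had 221, 243, 145 and 115 CPM in KO, against 56.9, 60.2, 56.7 and 51.6 CPM in WT. The groups were well apart (log2 fold change 1.68 ± 0.23, SE, adjusted p = 0.00116). The sulfate transporter Slc26a2 rose by 1.43 ± 0.20 on the log2 scale, and Bpnt1, which clears the spent cosubstrate, by 1.03 ± 0.20 (SE, adjusted p = 0.00116 and 0.00313, edgeR). In the list for glutathione, which joins genes of synthesis and recycling, 7 of 18 tested genes were higher and 3 lower, beside 24.2% and 23.1% of all genes. The 7 were Ggt1, Ggt7, Dpep1, Anpep, Oplah, Cth and Slc3a2, so the count does not describe the synthesis of glutathione. Anpep, 1 of the 7, is also among the 25 enterocyte markers. Oplah, the 5-oxoprolinase of the glutathione cycle, was 22.4 ± 6.88 CPM in KO and 4.38 ± 1.76 CPM in WT (SD, n = 4 each; log2 fold change 2.37, adjusted p = 0.00141, edgeR). Slc3a2, the heavy chain of several amino acid transporters, and Cth, which yields cysteine, rose by 1.11 ± 0.21 and 1.51 ± 0.32 on the log2 scale (SE, adjusted p = 0.00316 and 0.00459, edgeR). The 3 that fell were the glutathione reductase Gsr, Ggct and the cystine transporter Slc7a11, named after their values were seen. The 2 subunits of the enzyme that limits glutathione synthesis, Gclc and Gclm, were not called. Gss, the glutathione synthetase gene, was not called either, but was called lower in 4 of 18 alternatives.

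**Figure D5:**
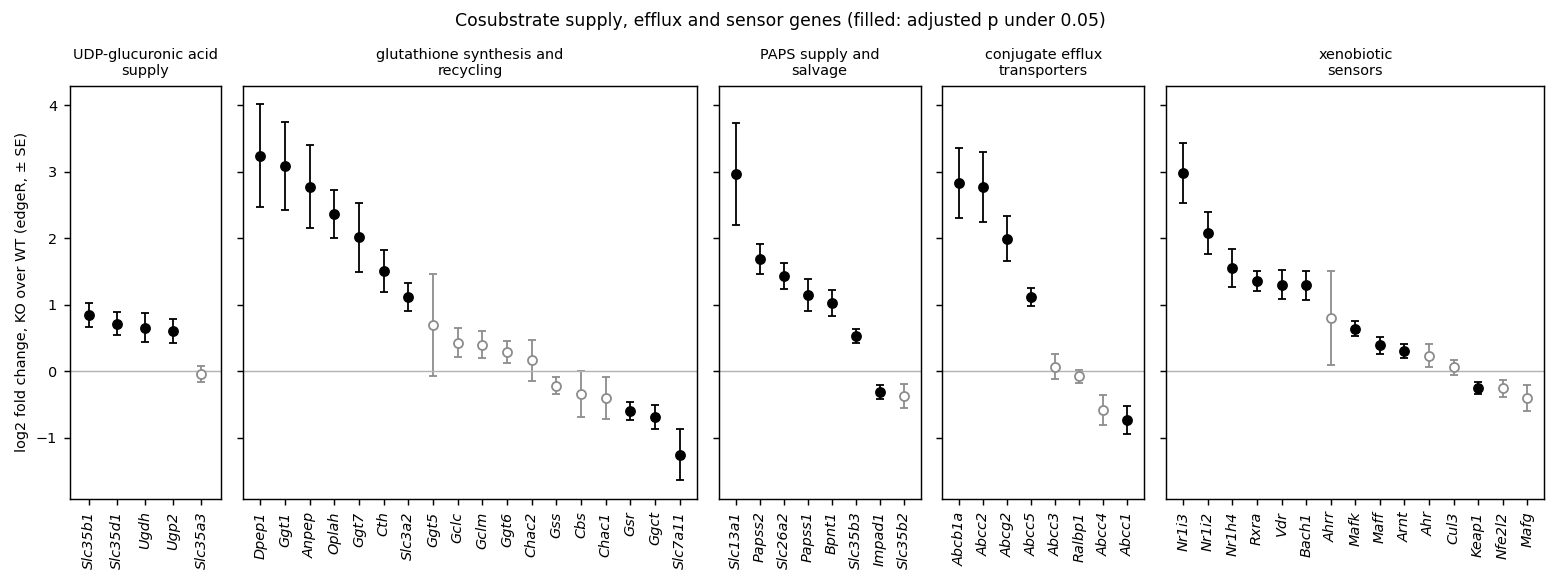
Log2 fold change (KO over WT, edgeR, ± 1 SE) of genes for cosubstrate supply, efflux and sensing; filled points passed the adjusted threshold of 0.05 and open points did not. All filled points of the UDP-glucuronic acid list are above 0, and the glutathione list has filled points on both sides.

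Other conjugating and deconjugating enzymes were compared in the same way. Of the 8 tested genes for methyl, acetyl and acyl conjugation 4 were higher and none lower. Nat8, which acetylates cysteine conjugates, was 31.0 ± 18.3 CPM in KO and 1.69 ± 0.861 CPM in WT (SD, n = 4 each; log2 fold change 4.23, adjusted p = 0.00116, edgeR). Nat2, an arylamine acetyltransferase, and Nat8f1 rose by 1.86 ± 0.29 and 2.41 ± 0.48 on the log2 scale (SE, adjusted p = 0.00154 and 0.00363, edgeR). Of the 5 tested genes listed as deconjugating, 1 was higher and 2 lower, beside 24.2% and 23.1% of all genes. They are Gusb and the sulfatase genes Arsa, Arsb, Sulf1 and Sulf2, and the steroid sulfatase gene Sts was not among the deposited genes. These sulfatases are known mainly for sulfated lipids and glycans, so the count does not describe the release of phase II conjugates. The β-glucuronidase gene Gusb fell, with 69.4 ± 9.80 CPM in KO and 120.4 ± 4.07 CPM in WT (SD, n = 4 each; log2 fold change −0.79, adjusted p = 0.00132, edgeR). The arylsulfatase gene Arsa rose by 1.49 ± 0.23 and Arsb had a log2 fold change of −0.51 ± 0.15 (SE, adjusted p = 0.00148 and 0.021, edgeR), the second of which was lost in 4 of 18 alternatives.

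Of the 8 transporters that export conjugates and drugs, 4 were higher and 1 lower, beside 24.2% and 23.1% of all genes. The 1 lower was Abcc1 (log2 fold change −0.73 ± 0.21, SE, adjusted p = 0.0167, edgeR), a call lost in 1 of 18 alternatives. Abcc2 rose by 2.77 ± 0.53 on the log2 scale (SE, adjusted p = 0.00304, edgeR), a call that held in all 18. Abcc4 was not called, but was called lower in 7 of 18 alternatives, DESeq2 among them. Abcc5 had 34.9 ± 4.19 CPM in KO and 16 ± 2.13 CPM in WT (SD, n = 4 each; log2 fold change 1.12, adjusted p = 0.00108, edgeR). Abcg2, which exports sulfates and glucuronides at the apical membrane, and Abcb1a, the drug efflux pump, rose by 1.99 ± 0.34 and 2.83 ± 0.52 on the log2 scale (SE, adjusted p = 0.00198 and 0.00268, edgeR). Of 15 genes listed for xenobiotic sensing 9 were higher and 1 lower, beside 24.2% and 23.1% of all genes. The list holds partners and regulators of the sensors too, so the 9 are not all sensors. They were Nr1i2, Nr1i3, Rxra, Vdr, Nr1h4, Arnt, Maff, Mafk and Bach1. The calls of Arnt and Maff among the 9 were lost in 13 and 12 of 18 alternatives, and that of Keap1, the 1 lower gene, in 12 of 18. Nr1i2, the pregnane X receptor, had 229, 185, 72.9 and 142 CPM in KO, against 44.3, 38.9, 35.7 and 30.4 CPM in WT. Nr1i3, the constitutive androstane receptor, had 29.3, 34.3, 17.7 and 20.1 CPM in KO, against 4.79, 4.13, 3.23 and 0.881 CPM in WT. Both groups were apart for each receptor (adjusted p = 0.0014 and 0.00142, edgeR), and their partner Rxra rose by 1.35 ± 0.15 on the log2 scale (SE, adjusted p = 0.00108, edgeR).

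Ahr, the aryl hydrocarbon receptor, and Nfe2l2, the gene of NRF2, were not called, at log2 fold changes of 0.24 ± 0.17 and −0.26 ± 0.12 (SE, adjusted p = 0.28 and 0.108, edgeR), and Nfe2l2 was called lower in 3 of 18 alternatives, total-count scaling among them. Of 20 tested NRF2 targets outside the conjugating families 5 were higher and 7 lower, beside 24.2% and 23.1% of all genes. The share of those higher is near that background, and the share of those lower is above it. Slc7a11, which was lower, and Gclc and Gclm, which were not called, are also counted in the glutathione list. The call of Akr1c13, 1 of the 5, was lost in 13 of 18 alternatives. Me1, the malic enzyme, had 14.3 ± 5.0 CPM in KO and 39.7 ± 3.12 CPM in WT (SD, n = 4 each; adjusted p = 0.00137, edgeR), and G6pdx fell by 0.69 on the log2 scale (adjusted p = 0.00232, edgeR). Osgin1 rose by 1.67 ± 0.26 (SE, adjusted p = 0.00158, edgeR). Of 8 intestinal HNF, CDX and related factors 2 were higher and 1 lower, close to or under the background of 24.2% and 23.1%. Hnf4g had 488, 489, 139 and 222 CPM in KO, against 41.9, 53.3, 41.8 and 22.6 CPM in WT (adjusted p = 0.00127, edgeR), with KO libraries 1 and 2 again the highest. Its relative Hnf4a was not called (log2 fold change 0.29 ± 0.14, SE, adjusted p = 0.11, edgeR). Gata4 and Cdx1 had log2 fold changes of 0.50 ± 0.13 and −0.44 ± 0.12 (SE, adjusted p = 0.0138 and 0.0172, edgeR), calls lost in 5 and 2 of 18 alternatives.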

How the data were processed

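TRIzol was used to extract total RNA, per the labels' protocols, and the submitters' processing notes name the programs HISAT2 and DESeq2. No source used here gives the counting program, genome build, annotation or strandedness. The authors deposited estimated counts per gene and library, of which 8.04% to 9.18% were not whole, as when reads are divided among genes; they were rounded. The second set of deposited columns has no unit in its header and was taken as FPKM from its ratio to the counts and library totals.

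The quasi-likelihood test of edgeR 4.0.16 (R 4.3.3) used filterByExpr, TMM factors and genotype as the only term, and was fitted on all genes and tested on simulated data; 12908 genes passed the filter. The standard error is the log2 fold change divided by the square root of F. DESeq2 1.42.0, limma 3.58.1 on log2(FPKM + 0.5), other scalings and filters, and left-out libraries were alternatives. Same-numbered libraries correlated in their deviations from the group means at 0.31 to 0.52 and differently numbered ones at −0.48 to 0.45, so the numbers pair libraries to some degree, although no label explains them. All printed values are from the fit without this pairing, and the fit with the replicate number as a block is given where it changed a call. No label ties libraries to separate litters or days, so a p-value covers only the spread among these 8 libraries, which may be technical.

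The members and gene lists were chosen with earlier results of these data known. All tested members could be named. Values per library were given for the called members with the 6 smallest p in each class and a mean of at least 50 counts. They were also given for the 3 most abundant of each class. Up to 3 genes per list and 5 regulators were named. Further genes were named where a count was 5 or fewer or to show what a list holds, after their values were seen. Seed matches were searched in 3′ UTRs of GENCODE M21, and windows around starts were from RefSeq.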

Additional observations from a re-analysis of the deposited data

Results flagged for a closer look

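Among the 20 members with values per library, 40 groups of 4 libraries were checked for a library far from the other 3, and 3 groups had one; chance flags about 1 in 20 groups. Gstm1 had 34.1 CPM in WT library 3, well above the other WT libraries but below every KO library. Ugt1a7c had 130 CPM in WT library 3 (129.6 before rounding), which lay above KO libraries 3 and 4, and without that library its difference passed the test. Gstp1 had 234 CPM in WT library 4, below the other WT libraries, and its difference was not called with or without it.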

How the results depend on the processing

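Of the 21 called members 16 kept their call in every alternative, and none reversed. Mgst3 lost it in 12, Gstt3 in 2, and Gstm1, Gstm2 and Mgst2 in 1 (KO replicates 1 and 2 left out). The count of members higher ran from 14 (that setting) to 26 (DESeq2), and that of members lower was 1 when genes needed a mean of 50 counts, where the count of SULTs lower was 0. UGTs higher were 7 without a filter and 8 with DESeq2. With the replicate block 20 members were higher and 3 lower, 1 UGT among them, and beyond Gsta1 and Ugt1a6a no member's call changed. Leaving out KO replicates 1 and 2 gave 5 GSTs and 1 MGST higher and log2 class totals of 0.99 (UGT, 1.59 with all libraries), 0.094 (GST, 0.41), 0.55 (MGST, 1.26), 2.30 (SULT, 3.12) and 0.55 (all members, 1.08). Summed FPKM gave 0.12 for GST and 0.59 for all members, and total-count CPM gave 0.11 for GST. Leaving out single libraries gave 17 to 22 members higher, 3 to 5 UGTs (5 without KO replicate 3 or WT replicate 3), 7 to 10 GSTs and 2 to 3 MGSTs, and log2 totals of 1.38 to 1.80 (UGT), 0.29 to 0.53 (GST), 1.01 to 1.45 (MGST) and 2.87 to 3.38 (SULT).

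Signs turned in 9 members that were not called, and the cause was not tested. Total-count scaling moved the median log2 fold change of all genes to −0.23, against 0.03, and limma on FPKM to −0.21. Under it Gsto1 was −0.080, Gstt2 −0.13, Gsta3 −0.086, Gsta4 −0.22 and Gstm5 −0.023, and with limma on FPKM they were −0.090, −0.12, −0.13, −0.25 and −0.032, and Gstz1 −0.0012. Relative to those medians all but Gsta4, with limma on FPKM, were above the median gene. Without KO replicates 1 and 2, Gsto1 was −0.080, Gstz1 −0.11, Gstt2 −0.14, Gsta4 −0.021, Gstp1 −0.14 and Gstp2 −0.10. Gsta4 was also −0.060 with upper-quartile factors and −0.0016 without a filter. Gstp3 was 0.0036 under the 50-count filter and 0.010 with the replicate block, and Gsta3 −0.10 with replicates 1 to 3 alone. Leaving out single libraries gave −0.084 to 0.079 for Gsta4, −0.18 to 0.17 for Gstp3 and −0.048 to 0.23 for Gsta3.

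Depth limits the 16 untested members, and genes that share sequence limit the Ugt1a, Gstp and Gsta1 values. The sexes of the mice, the dose and the order of processing are not stated in the labels.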
